A study of Arabidopsis thaliana with 6 samples.

Results

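miR163 is a microRNA (miRNA) of Arabidopsis thaliana that is listed under the name ath-miR163 as 1 of 349 mature sequences in a small RNA sequencing table. Every entry whose name holds miR163 was taken, and there was 1. It was selected on its values in these libraries, as an abundant miRNA whose mean level was higher in the snrk2.2/3/6 mutant than in the wild type, so its levels are given as a description. The small RNA came from rosette leaves, taken when plants in soil were 3 weeks old. There were 3 genotypes, all in the Columbia-0 background, with 2 biological replicates each. snrk2.2/3/6 is a triple mutant of the protein kinases SnRK2.2, SnRK2.3 and SnRK2.6, which act in abscisic acid signalling. hyl1-2 is a mutant of HYL1, a double-stranded RNA-binding protein of the miRNA processing complex. WT is the unmutated control. Neither the kinase transcripts nor HYL1 were measured in these data, so the genotypes could not be checked on the mutated genes.

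Plant miRNAs are cut by the RNase III enzyme DCL1, with HYL1 and the zinc finger protein SERRATE, from the stem of a folded precursor transcript. They guide ARGONAUTE proteins to mRNAs that they pair with over nearly their whole length. Most Arabidopsis miRNAs are 21 nt long, whereas 24 nt is the usual length of the small interfering RNAs that direct DNA methylation and are cut by DCL3. miR163 is known as an exception, a long miRNA made by DCL1. It is a young miRNA of the Arabidopsis lineage, and its known targets encode methyltransferases of a family that includes enzymes for salicylic and farnesoic acid.

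The deposited sequence of miR163 has 24 bases, 10 of them G or C. It is shown because its length and its pairing with antisense sites are described from it. Letters are those of the table, which writes T for U, and capitals mark the seed, bases 2 to 8 from the 5′ end.
miR163: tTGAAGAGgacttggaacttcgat
The sequence had 1 exact match in the genome of TAIR10.1, at chr1:24884359-24884382 on the plus strand, within the single exon of MIR163 (AT1G66725, chr1:24884066-24884396). None of the other sequences of the table had its seed (0 of 348) and none of them matched the MIR163 precursor, so its reads are not shared with a listed copy. Only reads identical to these 24 bases were counted, and shorter or shifted products of the same precursor were not.

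The annotated MIR163 precursor is 331 nt long, and the mature miRNA occupies its bases 294 to 317, near the 3′ end. In the fold of lowest energy predicted by RNAfold, 21 of the 24 bases of miR163 pair with bases 15 to 35 of the same transcript, and 258 bases lie between both stretches. The paired arms are printed 5′ to 3′ from TAIR10.1 to show how the 24-nt product faces a shorter stretch. Capitals mark bases that pair with the other arm in this prediction.
5′ arm (chr1:24884080-24884100): ATCGAGTTCCAACCTCTTCAA
3′ arm, mature miR163 (chr1:24884359-24884382): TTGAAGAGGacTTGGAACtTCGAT
The 3 unpaired bases of miR163 are bulged out opposite a 5′ arm of 21 bases. Reads from the 5′ arm were not analysed here.

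Antisense sites of miR163 were sought without gaps in 58461 annotated RNAs, with a penalty of 1 for a mismatch and 0.5 for a G:U pair, doubled at bases 2 to 13 of the miRNA. At a penalty of at most 4 there were 3 genes, and 4 more lay just outside this limit at a penalty of 5. The sites at a penalty of at most 4 and those of AT1G66720 and FAMT are printed 5′ to 3′ as in the mRNA, with T for U. Capitals mark bases that form a Watson-Crick pair with miR163 in this ungapped alignment.
AT1G66690 (chr1:24870402-24870425, minus strand): catcgAGTTCCAAGTCCTCTTCAA
PXMT1, AT1G66700 (chr1:24874307-24874330, minus strand): catcgAGTTCCAAGTCCTCTTCAA
AT1G66720 (chr1:24881603-24881626, plus strand): catcgAGTTCCAgGTCCTCTTCAA
FAMT, AT3G44860 (chr3:16380055-16380078, plus strand): AatcgAGTTCCAAGTttTCTTCAA
FDM1, AT1G15910 (chr1:5465305-5465328, plus strand): tTCcAAtTTCCAAGTCCTCTTCAt
AT1G66690 and PXMT1 had penalty 4 and carry the same 24 bases. AT1G66720 and FAMT, a farnesoic acid methyltransferase, had penalty 5 and were named after it was seen. These 4 sites lie in coding exons. Aligned without gaps, each lacks Watson-Crick pairs at bases 20 to 23 of miR163. AT1G66720 lacks such a pair also at base 12, and FAMT at bases 8 and 9. In each site, the letters atcg before AGTTCC are the reverse complement of cgat, the 3′ end of miR163. With a bulged base of miR163 they could pair, which the penalties do not count. FDM1, which encodes an XH/XS domain protein, had penalty 4 for a site in its 5′ UTR that is not paired at base 1 of the miRNA. Also at penalty 5, and named after it was seen, were AT5G38100 and SCPL43. AT5G38100 is annotated as a methyltransferase, with its site in a coding exon. SCPL43 is annotated as serine carboxypeptidase-like, with its site in the 5′ UTR. With the limit widened to 6 after these results were seen, 16 genes had a site. Of these, 8 are annotated as S-adenosyl-L-methionine-dependent or farnesoic acid methyltransferases and 12 carry the site in a coding exon. The shares of such genes among all scanned RNAs were not counted, so nothing is read from these counts. Target transcripts were not measured in this series, and a match is a description of the letters only.

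MIR163 lies next to several of these genes. The end of AT1G66720 is 1586 bases before the start of MIR163 on the same strand, and the sites in PXMT1 and AT1G66690 begin 9759 and 13664 bases before it. On the other side, LIG6, a DNA ligase gene, starts 615 bases after the start of MIR163.

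**Figure D1:**
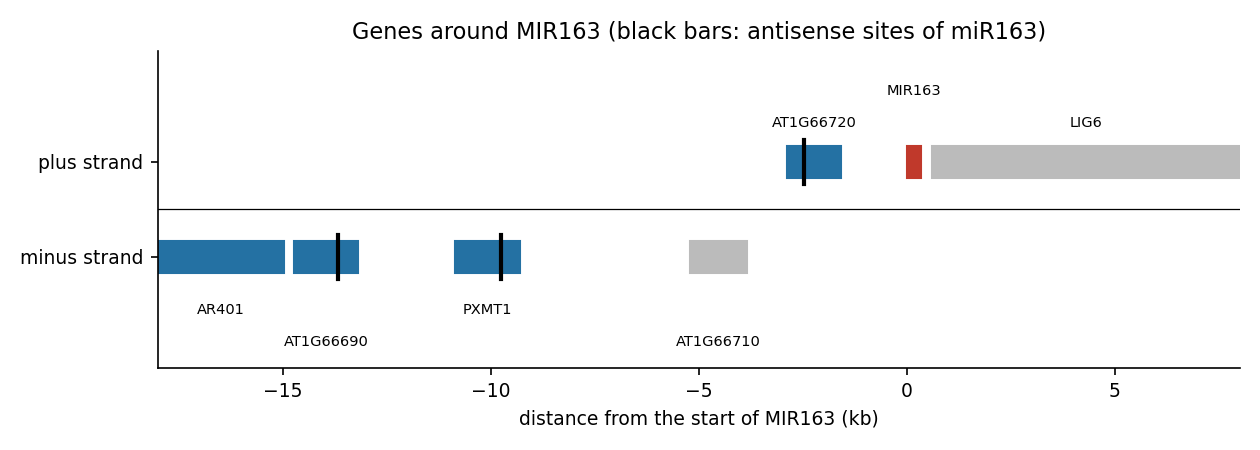
Genes around MIR163 on chromosome 1 of TAIR10.1, plotted as distance in kb from the start of MIR163, with the plus strand above and the minus strand below. MIR163 is red, genes annotated as S-adenosyl-L-methionine-dependent methyltransferases are blue, other genes and a pseudogene are grey, and black bars mark antisense sites of miR163; the 3 sites on this stretch begin 2463, 9759 and 13664 bases before MIR163.

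The table gives, for each library, whole reads and a normalized value in RPTM, the reads expected among 10000000 genome-matched small RNA reads. The genome-matched totals were 16041013 to 19601046 reads. miRNA reads were 29014 and 10386 in snrk2.2/3/6 replicates 1 and 2, 7141 and 6670 in hyl1-2, and 34567 and 30427 in WT. They were 0.172 and 0.0647% of the genome-matched reads in snrk2.2/3/6, 0.0364 and 0.0362% in hyl1-2, and 0.211 and 0.187% in WT. RPTM is therefore set almost wholly by reads that are not listed miRNAs. The snrk2.2/3/6 libraries thus stood apart from each other, by 2.65 times in miRNA reads per genome-matched read, and the levels of miR163 in this genotype are given for both. Ratios, medians and ranks over many sequences use the mean of the 2 libraries. A floor of 3 reads is 1.53 to 1.87 RPTM. Intervals are 95% Wilson intervals, and intervals and floors cover counting error only.

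miR163 had 2269 reads (1343 RPTM, interval 1289 to 1400) in snrk2.2/3/6 replicate 1 and 797 reads (497 RPTM, 464 to 533) in replicate 2. In hyl1-2 it had 189 reads (96.4 RPTM, 83.6 to 111) and 169 reads (91.8 RPTM, 79.0 to 107). In WT it had 608 reads (372 RPTM, 343 to 403) in replicate 1 and 835 reads (512 RPTM, 479 to 548) in replicate 2. By RPTM, only replicate 1 of snrk2.2/3/6 was above both WT libraries. Replicate 2 lay between them, within the counting interval of WT replicate 2. Both hyl1-2 libraries were below both WT libraries.

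As a share of all miRNA reads, miR163 was 7.82% (interval 7.52 to 8.13%) in snrk2.2/3/6 replicate 1 and 7.67% (7.18 to 8.20%) in replicate 2. It was 2.65% (2.30 to 3.05%) and 2.53% (2.18 to 2.94%) in hyl1-2. WT had 1.76% (1.63 to 1.90%) in replicate 1 and 2.74% (2.57 to 2.93%) in replicate 2. On this scale both snrk2.2/3/6 libraries stood above every hyl1-2 and WT library, and the hyl1-2 libraries lay between the WT libraries. In rank, miR163 was the 6th most abundant sequence in both snrk2.2/3/6 libraries, the 8th in both hyl1-2 libraries, and the 11th and 8th in WT.

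**Figure D2:**
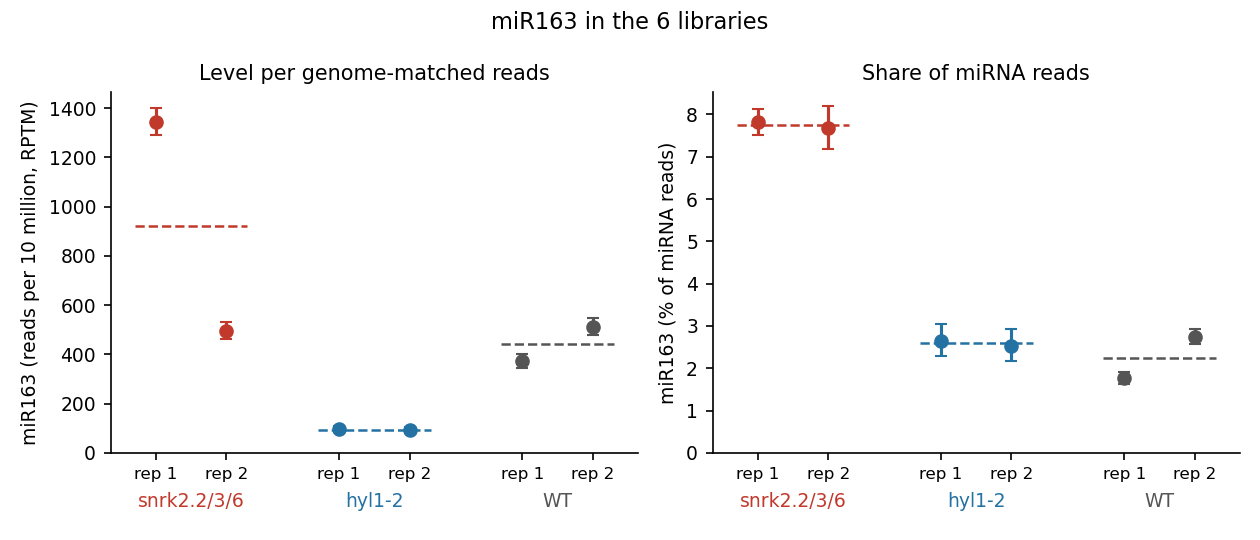
miR163 in each library, as RPTM in the left panel and as percent of all miRNA reads in the right panel. Points are libraries, bars are 95% Wilson counting intervals and dashed lines are the means of the 2 libraries of a genotype; the snrk2.2/3/6 libraries are at 1343 and 497 RPTM but at 7.82 and 7.67% of miRNA reads.

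The mean level of miR163 was 920 ± 598 RPTM in snrk2.2/3/6, 94.1 ± 3.26 RPTM in hyl1-2 and 442 ± 99.3 RPTM in WT (SD, n = 2 each). Its mean share was 7.75 ± 0.10% in snrk2.2/3/6, 2.59 ± 0.08% in hyl1-2 and 2.25 ± 0.70% in WT. The order by mean RPTM was thus snrk2.2/3/6, WT, hyl1-2, in which the ranges of snrk2.2/3/6 and WT overlapped and the hyl1-2 range was apart. By share the order was snrk2.2/3/6, hyl1-2, WT, in which the ranges of hyl1-2 and WT overlapped and the snrk2.2/3/6 range was apart.

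The description of miR163 as raised in snrk2.2/3/6 therefore holds differently on each scale. By mean RPTM it was 2.08-fold its WT level, with ratios of 0.97 to 3.61 between single libraries, above 1 in 3 of 4 pairs. Without snrk2.2/3/6 replicate 1 the ratio was 1.12, without replicate 2 it was 3.04, and without either WT library it was 1.80 or 2.47. By share it was 3.44-fold WT, with single ratios of 2.80 to 4.45, above 1 in 4 of 4 pairs, and 2.82 to 4.40 with 1 library left out. All other miRNAs together had 15832 and 5978 RPTM in snrk2.2/3/6 replicates 1 and 2, against 20770 and 18156 RPTM in WT, which put their mean at 56.0% of WT. A higher share of miR163 thus went with a lower sum of the other miRNAs, and fewer reads of other miRNAs and more miR163 both enter it. A change per cell cannot be told apart from a change in the cells or RNAs that make up a sample.

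The distance between the snrk2.2/3/6 replicates was nearly the same for miR163 as for the miRNAs as a whole. Replicate 1 was 2.70 times replicate 2 in RPTM for miR163, 2.65 times for all miRNA reads and 2.91 times for the median sequence (n = 58 with reads in replicate 2). In share, the replicates differed by 1.02 times. In hyl1-2, replicate 1 was 1.05 times replicate 2 for miR163 and 1.01 times for all miRNA reads. The WT replicates behaved otherwise, with replicate 1 at 0.73 times replicate 2 for miR163 and 1.13 times for all miRNA reads. Whether the cause of the distance lies in the plants or in the libraries was not tested.

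Of the 349 sequences, 174 had at least 1 read and 59 averaged 10 or more reads per library. These 59 include miR163 and are the background here. By RPTM, 3 of them (5.08%) had both snrk2.2/3/6 libraries above both WT libraries, and miR163 was not among these. They were miR866-3p, miR395a/d/e and miR156c-3p, the last of which was named after its values were seen. By share, 18 (30.5%) had both libraries above, with miR163 among them. A mean RPTM at least 2-fold that of WT was found for 4 sequences (6.78%), and miR163 was 1 of them. Since miR163 was chosen for this contrast, nothing is read from these counts. The median log2 ratio of snrk2.2/3/6 over WT was -0.72 (mean RPTM with a pseudocount of 1). miR163, at 1.06, was 1.78 above this median and the 4th highest of 59. On the other scales this distance was 1.79 by share or TMM factors and 1.81 by DESeq2's size factors. A factor per library moves all sequences alike and nearly cancels in the distance, so nothing is read from these like values.

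The other sequences with a 2-fold higher mean were far less abundant than miR163. miR866-3p had 29 and 7 reads in the snrk2.2/3/6 libraries and 4 and 7 in those of WT. miR840-5p had 19 and 4 reads in the snrk2.2/3/6 libraries and 2 and 5 in those of WT, a difference made by replicate 1. miR395a/d/e, which targets ATP sulfurylases and a sulfate transporter, had 65 and 34 reads in the snrk2.2/3/6 libraries and 11 and 29 in those of WT. These few reads leave large counting errors, whereas miR163 rests on at least 169 reads in each library. Of the 18 sequences with a WT mean of at least 100 RPTM, a limit set after the values were seen, 2 had a higher mean in snrk2.2/3/6 than in WT. They were miR163, which was chosen for this, and miR167a-5p/b at 130% of WT, and the median of the 18 was 56.7%. The lowest ratios of all 59 were those of miR165a-5p (2 and 0 reads in snrk2.2/3/6, 34 and 36 in WT), miR319a/b (9 and 3 reads, against 281 and 49) and miR165a-3p/b (152 and 63 reads, against 923 and 501).

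**Figure D3:**
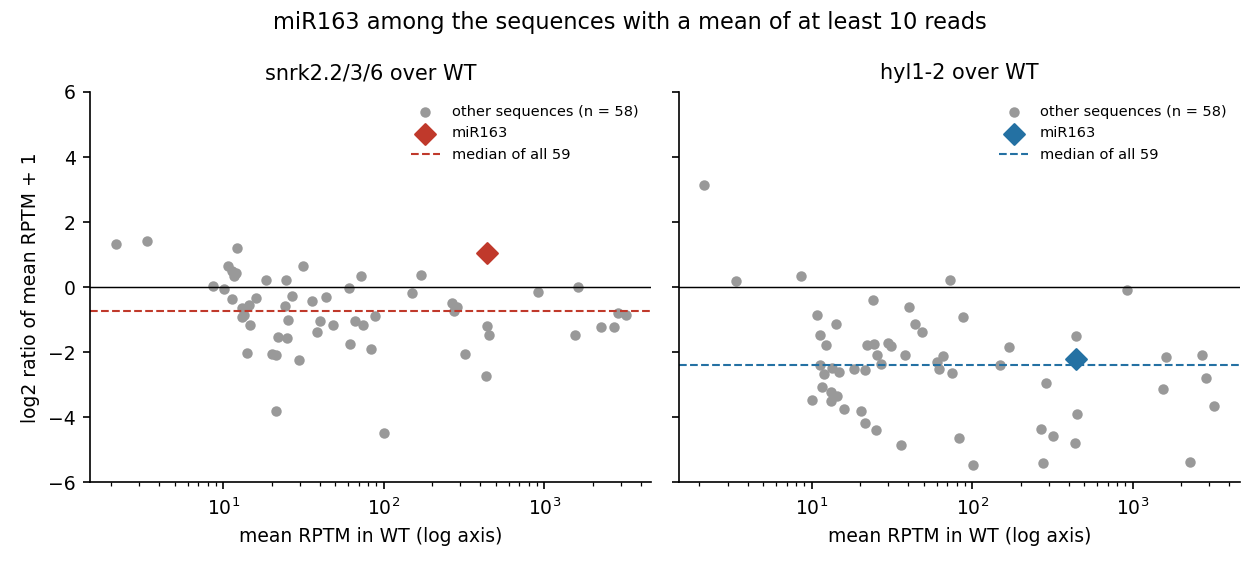
Log2 ratio of mean RPTM + 1 over WT (vertical axis) against mean RPTM in WT (horizontal log axis) for the 59 sequences that averaged 10 or more reads, for snrk2.2/3/6 on the left and hyl1-2 on the right. Diamonds are miR163, grey points the other 58 sequences and dashed lines the medians; miR163 is at 1.06 against a median of -0.72 in snrk2.2/3/6 and at -2.22 against -2.39 in hyl1-2.

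The miRNAs next to miR163 in mean WT level (442 RPTM) are given beside it. They were miR396b-5p, which targets growth-regulating factors, and miR165a-3p/b, which targets HD-ZIP III leaf polarity factors, just below. Just above was miR162a-3p/b-3p, which targets DCL1. Next above came miR5026, at 916 RPTM, so that only the other 3, at 436 to 450 RPTM, had a like level. miR396b-5p had 345 and 44.3 RPTM in snrk2.2/3/6, against 469 and 414 RPTM in WT, a mean at 44.0% of WT. miR162a-3p/b-3p had 252 and 74.8 RPTM in snrk2.2/3/6, against 497 and 402 RPTM in WT, a mean at 36.3%. For both, and for miR165a-3p/b at 14.8%, each snrk2.2/3/6 library was below both WT libraries. miR5026 had 1311 and 331 RPTM in snrk2.2/3/6, against 806 and 1026 RPTM in WT, so that its replicates lay on either side of WT. In snrk2.2/3/6 replicate 2, where miR163 had 497 RPTM, these 4 sequences had 39.3 to 331 RPTM. These sequences were placed beside miR163 by their WT level, and no difference from them was tested.

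**Figure D4:**
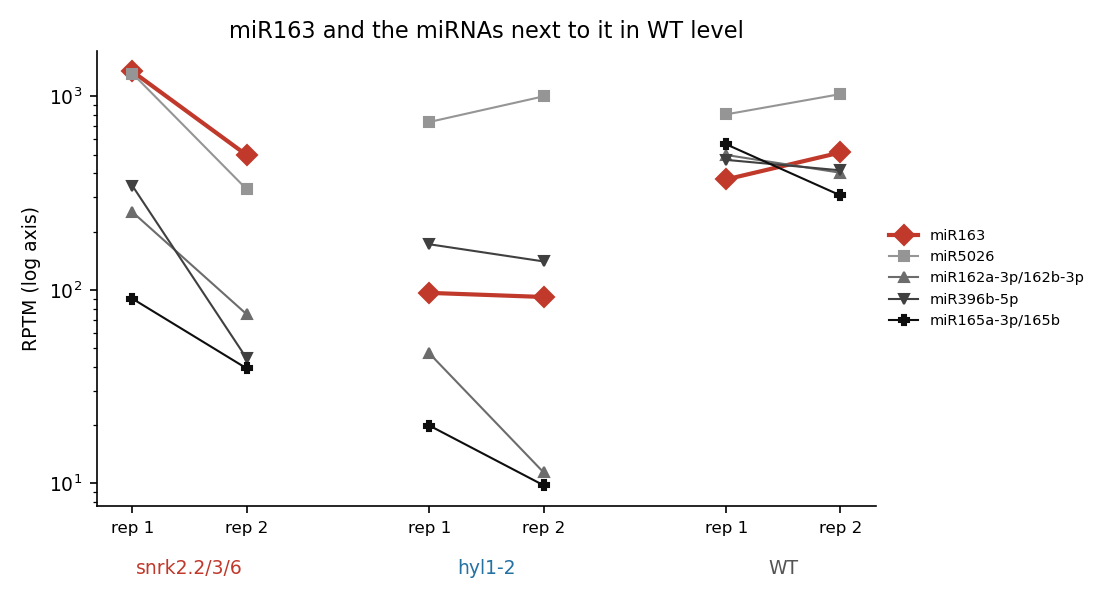
RPTM on a log axis for miR163 (red diamonds) and the 4 miRNAs next to it in mean WT level, in each library, with lines that join the libraries of a genotype. miR163, miR162a-3p/b-3p, miR396b-5p and miR165a-3p/b have WT means of 436 to 450 RPTM, and in snrk2.2/3/6 replicate 2 miR163 is at 497 RPTM with the other 3 of these at 39.3 to 74.8 RPTM.

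The level of miR163 in hyl1-2 was also set against that in WT. miR163 was chosen for another contrast, but against the same WT libraries, and the snrk2.2/3/6 libraries entered the fit, so the test of hyl1-2 over WT is not independent of the choice and its p is given as a description. By mean RPTM it was at 21.3% of WT (log2 fold change -2.23, standard error 0.85, adjusted p = 0.0170, edgeR's quasi-likelihood test with genome-matched totals and Benjamini-Hochberg adjustment over 59 sequences). It was below both WT libraries in both hyl1-2 libraries, as were 52 of the 59 (88.1%), and 40 (67.8%) passed this test as lower, so miR163 did as most miRNAs did. Its ratio was 26th from the top of 59, at -2.22 against a median of -2.39 (pseudocount of 1). The direction depends on the scale. By share miR163 was 1.15-fold WT, above WT in 2 of 4 pairs of single libraries, and was not among the 24 sequences (40.7%) with both libraries below WT. With TMM factors its log2 fold change was 0.51 (standard error 0.40, adjusted p = 0.341, edgeR), with the total miRNA count 0.20 (standard error 0.30, adjusted p = 0.621, edgeR), and with DESeq2's own size factors 0.32 (standard error 0.37, adjusted p = 0.529, DESeq2). On these scales the median of all sequences, -2.39 by RPTM, was between -0.14 and 0.11. miR163 was thus lower in hyl1-2 per genome-matched read, as were most of the 59 sequences, and not per miRNA read. Of its neighbours in WT level, miR5026 had 736 and 999 RPTM in hyl1-2, against 806 and 1026 RPTM in WT, and miR396b-5p had 172 and 140 RPTM in hyl1-2, against 469 and 414 RPTM in WT. miR162a-3p/b-3p had 46.9 and 11.4 RPTM in hyl1-2, against 497 and 402 RPTM in WT. miR165a-3p/b had 19.9 and 9.78 RPTM in hyl1-2, against 565 and 307 RPTM in WT. miR163, at 96.4 and 91.8 RPTM in hyl1-2, was below miR5026 and miR396b-5p and above miR162a-3p/b-3p and miR165a-3p/b. Over 15 alternatives the adjusted p reached 0.621 (miRNA total, edgeR). Leaving out any hyl1-2 or WT library ended the call, in fits with 1 library in a genotype (log2 fold change -2.44 to -1.98). The standard error of 0.85 came from a fit that also held the snrk2.2/3/6 libraries. With the hyl1-2 and WT libraries alone, the log2 fold change was -2.23 (standard error 0.26, adjusted p = 0.00171, edgeR). This fit keeps the WT libraries of the choice, and miR163 was chosen with earlier results known. Its p is thus no more independent and is a description too.

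Set directly against hyl1-2, miR163 in snrk2.2/3/6 was 9.77-fold higher by mean RPTM, with single ratios of 5.15 to 14.6, and 2.99-fold higher by share, with single ratios of 2.90 to 3.09. The other miRNAs together were 3.08-fold higher in snrk2.2/3/6 than in hyl1-2 by RPTM. This comparison uses the snrk2.2/3/6 libraries for which miR163 was chosen and is a description.

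The sequences with the most similar pattern were found by the root mean square difference from miR163 in log2(RPTM + 1) relative to the WT mean, over the 6 libraries. The 5 closest of 58 were miR167a-5p/b (difference 0.45), miR395a/d/e (0.50), miR395b/c/f (0.51), miR846-3p (0.60) and miR398b-3p/c-3p (0.62). The median difference was 1.39 and the largest 3.45. Of these 5, 4 were also among the 5 closest by share of miRNA reads. A factor per library nearly cancels in this difference from miR163 too, so nothing is read from the overlap. miR167a-5p/b, which targets the auxin response factors ARF6 and ARF8, had 300 and 145 RPTM in snrk2.2/3/6, 46.4 and 47.3 in hyl1-2, and 175 and 166 in WT. Replicate 1 of snrk2.2/3/6 was above both WT libraries and replicate 2 below both, whereas replicate 2 lay between the WT libraries for miR163. miR395b/c/f had 124 and 41 reads in snrk2.2/3/6, 8 and 23 in hyl1-2, and 41 and 61 in WT. miR398b-3p/c-3p, which targets copper/zinc superoxide dismutases, had 3330 and 2031 reads in snrk2.2/3/6, 730 and 664 in hyl1-2, and 2831 and 2466 in WT, a mean RPTM in snrk2.2/3/6 at 99.8% of WT. miR846-3p, which targets jacalin lectin genes, had 56 and 16 reads in snrk2.2/3/6, 3 and 6 in hyl1-2, and 24 and 36 in WT. All 5 were low in hyl1-2 and highest in snrk2.2/3/6 replicate 1, which follows from how they were picked. Of the 59 sequences, 52 had both hyl1-2 libraries below both WT libraries. For 24 of the 59, snrk2.2/3/6 replicate 1 was above both WT libraries.

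**Figure D5:**
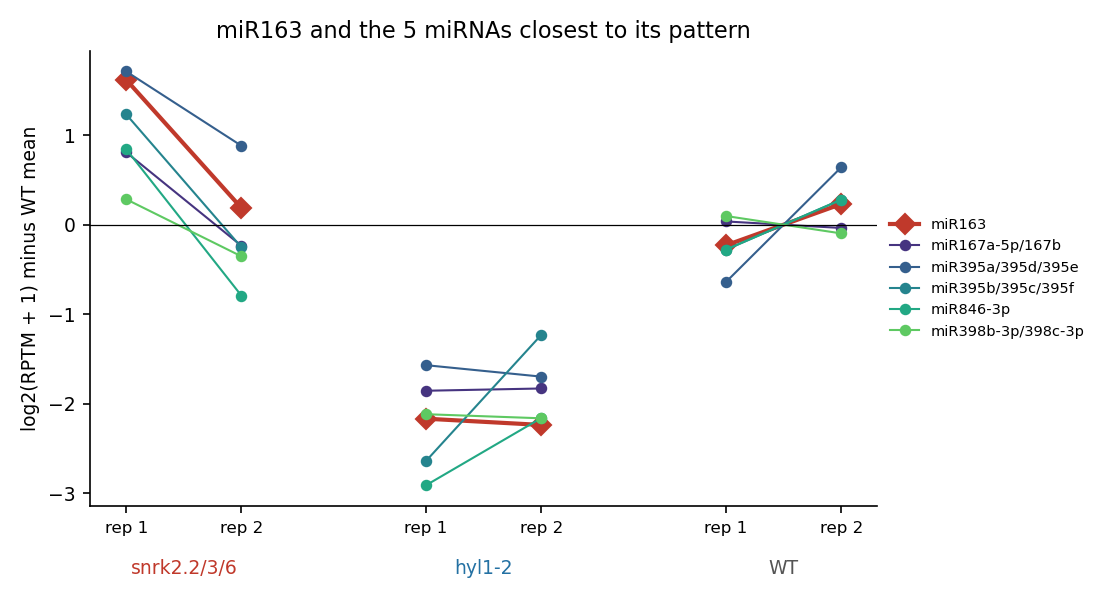
Log2(RPTM + 1) minus the WT mean for miR163 (red diamonds) and the 5 miRNAs closest to its pattern, in each library, with lines that join the libraries of a genotype. The 5 were picked by this pattern. All are lower in hyl1-2 than in WT, and snrk2.2/3/6 replicate 1 is the highest library for each. The differences from miR163 are 0.45 to 0.62 against a median of 1.39 over 58 sequences.

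By length, miR163 stands alone among the miRNAs with enough reads. The table lists 9 sequences of 24 nt, of which 3 had any read, and the other 2 with reads, miR8121 and miR5653, had 1 read each, both in WT replicate 1. Of all 4869 reads of this length, miR163 held all but 2. The 5 sequences of 23 nt had 103 reads in all, from 0.0896 to 0.116% of miRNA reads in snrk2.2/3/6, 0.126 to 0.195% in hyl1-2 and 0.0624 to 0.0694% in WT. None of them reached a mean of 10 reads. Among sequences with such a mean, the median log2 ratio of snrk2.2/3/6 over WT was -0.65 for 20 nt (n = 5), -0.87 for 21 nt (n = 48) and 0.22 for 22 nt (n = 5), beside 1.06 for miR163 and -0.72 over all 59. In hyl1-2 these medians were -2.52, -2.43 and -2.08, beside -2.22 for miR163 and -2.39 over all. With 1 sequence of 24 nt, length and the identity of miR163 cannot be told apart.

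The annotated precursor of miR163 was the 5th longest of those of the 59 sequences, all of which matched a precursor in the RefSeq annotation. Longer ones belonged to miR824-3p (689 nt), miR167d (377 nt), miR846-3p (359 nt) and miR822-5p (337 nt), named after their lengths were seen. Their log2 ratios of snrk2.2/3/6 over WT were -1.57, -1.02, 0.22 and -0.57. A sequence found in several precursors was given the longest, and miR157a-5p/b-5p/c-5p was given 217 nt. The sequences are not separate precursors, as both miR408 sequences (218 nt) and both miR391 sequences (206 nt) were counted. Of the 14 sequences with a precursor of at least 200 nt, 2 had a mean RPTM at least 2-fold that of WT in snrk2.2/3/6. They were miR163 and miR840-5p. The median log2 ratio of the 13 other than miR163 was -0.86, beside -0.72 for the 45 with a shorter precursor. The log2 ratios of these 13 ranged from -1.57 to 1.32, the highest being that of miR840-5p, and no difference by precursor length was tested. In hyl1-2 the median log2 ratios were -2.47 for these 13 and -2.39 for the 45.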

How the data were processed

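Small RNA libraries of 3 genotypes with 2 replicates each were analysed, grouped by the sample titles. The authors trimmed adaptors, aligned the reads of 18 to 30 nt with TAIR10, and counted those equal to the mature entries in release 21 of miRBase; the mapper and its settings are not given in the sources used here. The deposited counts are whole reads per sequence. The deposited RPTM signal was made by the authors from each count and the genome-matched total, which was recovered here from both. The replicates of a genotype differed by more than sampling noise (10.5, 6.47 and 5.60 times its variance in snrk2.2/3/6, hyl1-2 and WT by a chi-square statistic), so each library counted as 1 sample. The methods call them biological replicates.

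hyl1-2 was tested against WT with edgeR 4.0.16 in R 4.3.3. The fit used glmQLFit and glmQLFTest on all 6 libraries, with genome-matched totals and no TMM factors. It took sequences averaging 10 or more reads, with Benjamini-Hochberg adjustment and a threshold of 0.05. The code was first run on simulated data. The simulated drops were larger than that of miR163, so this check does not cover a drop of its size. Standard errors are the log2 fold change divided by the root of F. Alternatives were TMM factors, miRNA totals, DESeq2 1.42.0, limma 3.58.1, other filters, fewer libraries and a replicate block. Named sequences were the 5 with the closest pattern and the 4 nearest in WT level. The 3 highest and 3 lowest ratios of snrk2.2/3/6 over WT were named too. So were any other 24-nt sequence averaging 10 reads (there was none) and the genes with a site at a penalty of at most 4. Exceptions are marked, apart from LIG6, the 24-nt sequences with 1 read and the examples of how precursors were counted. miR163 and all lists were chosen with earlier results of these data known. Sequences, genes and precursors come from TAIR10.1 with its RefSeq annotation, and folds from RNAfold 2.7.2. Other steps used Python 3.11.15 (numpy 2.4.6, pandas 2.3.3, matplotlib 3.10.9, scipy 1.17.1).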

Additional observations from a re-analysis of the deposited data

How the results depend on the processing

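The log2 ratio of miR163 in snrk2.2/3/6 over WT (1.06) was 1.78 by share of miRNA reads, 1.86 with TMM factors and 1.88 with DESeq2's size factors, and 0.17 to 1.60 with 1 library left out. Over hyl1-2 (3.29) it was 1.58, 1.34 and 1.56 on these scales and 2.40 to 3.83 with 1 library left out. Its distance from the median (1.78) was 1.44 without a filter on low counts and 1.48 to 2.14 with 1 library left out. The number of sequences with both snrk2.2/3/6 libraries above both WT libraries (3) was 18 by share, 21 with either set of factors and 7 without a filter, and 3 to 24 with 1 library left out, the highest without snrk2.2/3/6 replicate 2. For miR163 in hyl1-2 (log2 fold change -2.23), the sign turned with TMM factors (0.51), the miRNA total (0.20) and DESeq2's size factors (0.32). The adjusted p of edgeR missed the threshold without a filter (-2.23, adjusted p = 0.0789), where 174 sequences were tested. With 1 library left out the fold change was -2.44 to -1.98; a genotype left with 1 library was assumed to vary like the others. Sequences called lower in hyl1-2 (40) were 15, 17 and 10 with TMM factors, the miRNA total and DESeq2's size factors, and 18 to 48 with 1 library left out. Those called higher (1) were 10, 8 and 10, and 0 to 1. Without a filter edgeR called 0 lower and 0 higher, with 64 and 1 at an unadjusted p under 0.05; DESeq2 with genome-matched totals, on the filtered sequences, called 45 and 1.

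The titles number the replicates 1 and 2, but nothing ties same-numbered libraries together. Their deviations correlated across 59 sequences with r = -0.30 between snrk2.2/3/6 and WT, -0.18 between snrk2.2/3/6 and hyl1-2, and 0.29 between hyl1-2 and WT. With the replicate block, the values were 0.90 over WT, 3.12 over hyl1-2, 1.86 from the median, 4 sequences above WT, -2.26 for miR163 in hyl1-2, and 38 lower and 1 higher in hyl1-2. With crossed pairs, added after seeing the data, 7 sequences were above WT.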
